A study of Drosophila melanogaster with 4 samples.

Results

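The genes described here encode the proteins of the cytosolic ribosome of Drosophila melanogaster. They were chosen by symbol: RpL or RpS, an optional P, digits and optional letters, together with sta, which encodes the small-subunit protein RpSA. The kinase gene RpS6KII and symbols ending in -like were left out. The rule took 88 of the 17137 genes of the deposited table, 50 for the large subunit and 38 for the small subunit. Of these, 82 passed the filter on low counts and were tested (48 large, 34 small), and 6 did not.

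The 4 libraries came from heads of flies aged 10 days, with no treatment, and fall into 2 groups of 2. One genotype was VAChT:VGlut split-Gal4/UAS-UNC84 and the other was VAChT:VGAT split-Gal4/UAS-UNC84. VAChT, VGlut and VGAT are the vesicular transporters of acetylcholine, glutamate and GABA. In a split-Gal4 line each of a pair of promoters supplies a part of the transcription factor, so UNC84, a nuclear envelope protein that the series describes as fused to GFP, is made where both promoters are active. Both genotypes share the VAChT part and the tag. Tagged nuclei were pulled down from pooled heads by the INTACT method, and poly(A) RNA from them was sequenced. The counts therefore describe RNA that left with the nuclei and are not a measure of the cytoplasmic messages that ribosomes translate. Whether cytoplasmic RNA was carried over with the nuclei was not tested. The labels call the material neuronal nuclei, and whether a genotype's 2 libraries stem from different fly collections is not stated in them. The p-values below then measure the spread between these libraries, which may be technical.

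A ribosome is built from a small subunit, which reads the message, and a large subunit, which joins amino acids. The ribosomal proteins are needed in near-equal amounts, and their genes are among the most strongly and evenly transcribed in a cell. In flies, loss of 1 copy of many of them gives the Minute phenotype of slow development and thin bristles. Some members have near copies, and in flies several of these copies are known mainly from the germline.

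Library totals were 2023040 and 2556988 counts for VAChT:VGlut, and 1937871 and 1490390 counts for VAChT:VGAT. Each library detected 10432 to 10844 genes, and 3 counts corresponded to 1.19 to 1.998 CPM (normalised counts per 1e6 of the library). Markers of several cell types were measured beside the neuronal ones. The 6 neuronal markers summed to 8776 and 8970 CPM in VAChT:VGlut and to 7414 and 7496 CPM in VAChT:VGAT, and all 6 were called higher in VAChT:VGlut. The 19 photoreceptor markers summed to 36223 and 36559 CPM against 29999 and 30118 CPM, with 9 called higher and 3 lower. Muscle markers were also at a higher sum in VAChT:VGlut (1798 and 1790 CPM against 1342 and 1350), with 8 of 10 tested called higher. Glial markers went the other way, with sums of 2074 and 1991 CPM against 2581 and 2593 CPM and 4 of 9 called lower. Fat body markers did so too, with sums of 24167 and 23560 CPM against 29762 and 29719 CPM and 5 of 6 tested called lower. The 13 germline and ovary markers summed to 164 and 179 CPM against 232 and 232 CPM, with 2 of 5 tested called lower. The 2 called were CycB (2 and 1 counts against 53 and 32) and dhd (0 and 1 against 30 and 20). The 3 tested but not called were orb, bru1 and grk, with log2 fold changes of 0.20, -0.25 and -0.17. The eggshell gene Vm26Aa was at 0 in all libraries. The median exonic lengths of the tested markers were 8952.5 bases (neuronal), 2351 (photoreceptor), 2570.5 (muscle), 2996 (glia), 1614.5 (fat body) and 3047 (germline and ovary). Fold change moved with length in this comparison, as described below, and the part of length in the marker differences was not tested. The part that these markers play in the results below was not tested.

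The ribosomal protein genes made up 4.42% and 4.26% of all counts in the VAChT:VGlut libraries (Wilson 95% intervals 4.40 to 4.45 and 4.24 to 4.29). In the VAChT:VGAT libraries they made up 5.08% and 5.0% (5.05 to 5.11 and 4.97 to 5.04). Both VAChT:VGAT libraries thus lay above both VAChT:VGlut libraries. The means were 4.34% ± 0.113 and 5.04% ± 0.0572 (SD, n = 2), a difference of -0.699 percentage points and a ratio of 1.16 in favour of VAChT:VGAT. The subunits showed nearly the same ratio. Large-subunit genes took 2.63% and 2.55% against 3.01% and 2.96% (ratio 1.15), and small-subunit genes 1.80% and 1.71% against 2.07% and 2.04% (ratio 1.17). Intervals cover counting error only. In such bulk material, fewer cells of a type and less RNA per cell cannot be told apart.

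Most tested members were abundant, and a few minor copies were far lower. Mean levels ran from 18.2 to 1020 CPM with a median of 585 CPM, and 79 of the 82 were at 100 CPM or more. Divided by exonic length, the median level was 584 CPM per kb, and the 10th and 90th percentiles were 354 and 1015 CPM per kb, a ratio of 2.86. The highest level per length was that of RpL41, which encodes a very short peptide of the large subunit, at 2032 and 1799 CPM per kb in VAChT:VGlut and 2098 and 1981 in VAChT:VGAT. RpL23, a large-subunit protein, followed at 1314 and 1303 against 1401 and 1305 CPM per kb. RpL40, whose product is made as a fusion with ubiquitin, was at 1058 and 1067 against 1305 and 1282 CPM per kb. Of these 3 only RpL40 was called between the genotypes (RpL41 adjusted p = 0.225, RpL23 adjusted p = 0.553, edgeR). The lowest tested levels per length were those of the minor gene copies RpS15Ab (22.2 and 23.6 against 28.3 and 26.7 CPM per kb) and RpS14b (90.9 and 92.5 against 107 and 98.2 CPM per kb), followed by RpL38. RpL38, a large-subunit protein with no second copy among the members, stood at 132 and 133 against 149 and 126 CPM per kb, with overlapping groups and an adjusted p of 0.768 (edgeR).

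**Figure D1:**
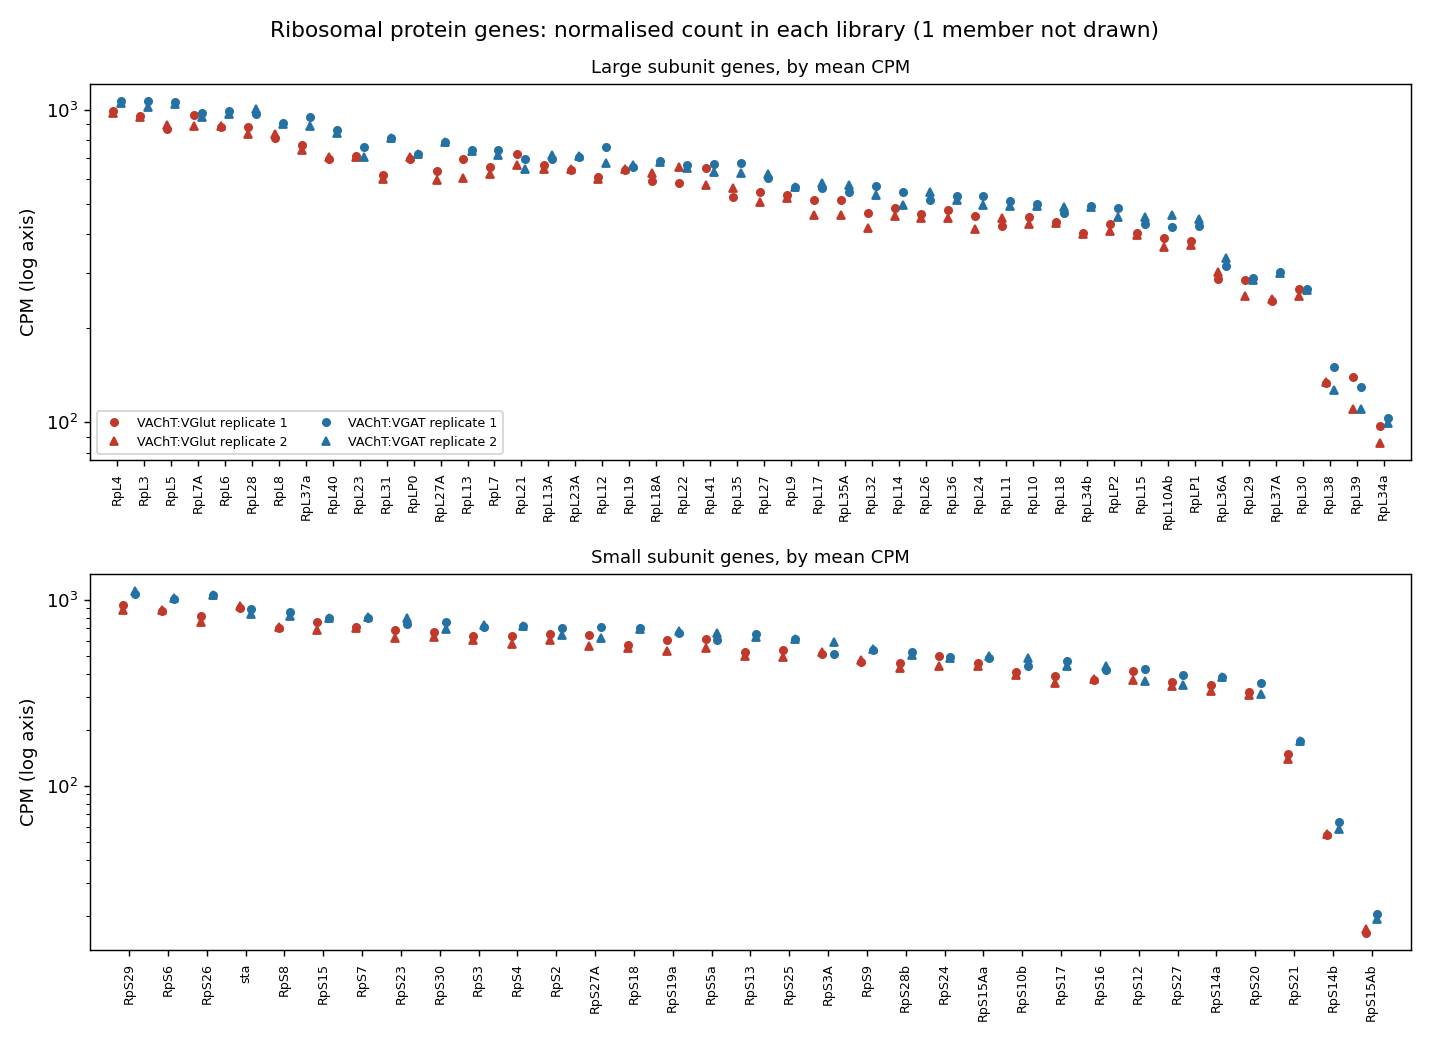
Level of the tested ribosomal protein genes, 1 of them not drawn, in the 4 libraries, in CPM on a log axis, with the large and small subunit in separate panels and 1 point per library. The median level is 585 CPM, 79 members are at 100 CPM or more, and for 65 of the 82 tested members both VAChT:VGlut libraries lie below both VAChT:VGAT libraries.

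In the comparison of the genotypes, 52 of the 82 tested members (63.4%) were called lower in VAChT:VGlut at an adjusted p under 0.05 and 0 were called higher (edgeR quasi-likelihood test, Benjamini-Hochberg adjustment over all 8246 tested genes). None was higher at an unadjusted p under 0.05 either, and none was called higher by DESeq2 or limma-voom. Over all tested genes 5.54% were called lower and 6.22% higher. Both VAChT:VGlut libraries lay below both VAChT:VGAT libraries for 65 of 82 members, against 25.6% of all tested genes, and for 51 of the 52 called members. The exception was RpS27A. The median log2 fold change of VAChT:VGlut over VAChT:VGAT was -0.19 over the members and -0.01 over all tested genes, and 79 of 82 members had a negative value. Changes were small: the called members were 1.10 to 1.35 times higher in VAChT:VGAT, with a median of 1.16, and none reached 1.5 times. Member values ranged from -0.44 to 0.08 with an SD of 0.10, beside a median standard error of 0.051.

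The pattern ran across both subunits and all large chromosome arms. Of 48 large-subunit genes 29 were called lower (median log2 fold change -0.16), and of 34 small-subunit genes 23 (median -0.21). By chromosome arm, the called members were 12 of 17 on 2L, 10 of 18 on 2R, 9 of 14 on 3L, 12 of 17 on 3R and 9 of 15 on X. The arm medians lay between -0.21 and -0.16, and the 1 gene on chromosome 4, RpS3A, was not called. Among the members the fold change had little relation to exonic length (Spearman rho -0.035) or mean level (rho -0.089), over 82 genes that share the same 4 libraries. Of the 74 tested members whose exon bases belong to no other gene on the strand, 47 were called lower.

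The count rests in part on single libraries. Without VAChT:VGlut replicate 2 it was 23 members (513 genes called in all), and without VAChT:VGAT replicate 1 it was 34 (612 genes). DESeq2 called 24 members (370 genes in all), and edgeR called no member (7 at an unadjusted p under 0.05) when the biological coefficient of variation, estimated here at 2.18%, was set to 0.1. Replicates of a genotype also differed: VAChT:VGlut replicate 2 lay below replicate 1 for 59 of 82 members with a median log2 ratio of -0.06, and the VAChT:VGAT ratio had a median of -0.01.

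**Figure D2:**
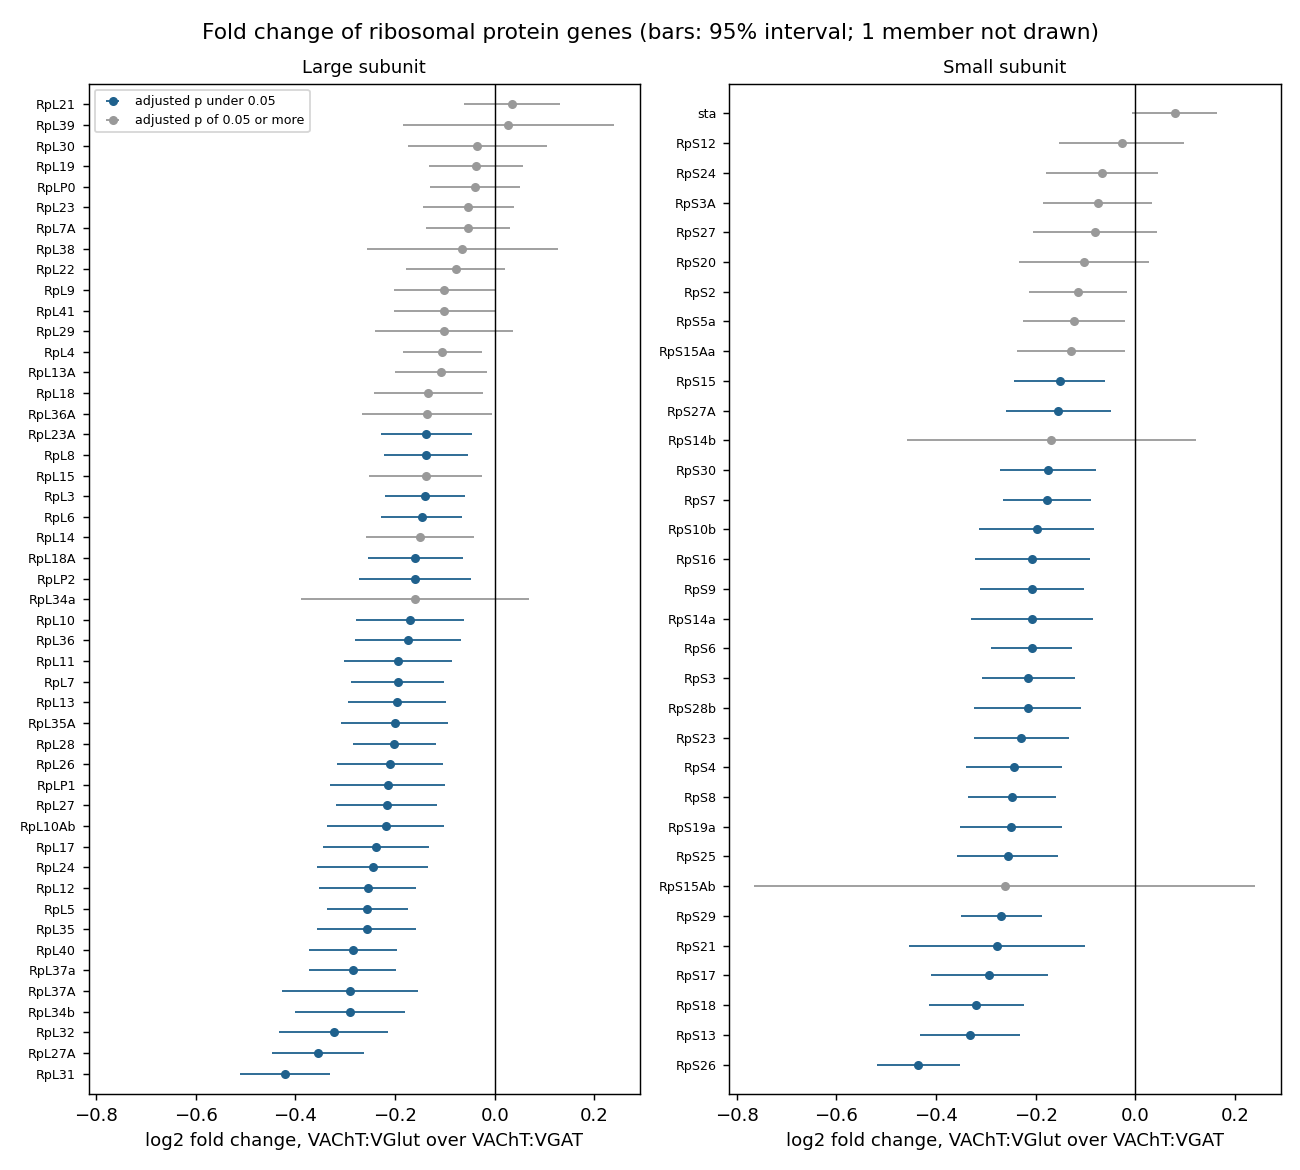
Log2 fold change of VAChT:VGlut over VAChT:VGAT for the tested members, 1 of them not drawn, sorted within the large and small subunit, with 95% intervals as bars and members at an adjusted p under 0.05 in blue. Points left of 0 are lower in VAChT:VGlut, which holds for 79 of the 82 tested members, and only RpL21, RpL39 and sta lie to the right.

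The 6 members with the largest change belong to both subunits. RpS26, a small-subunit protein at the messenger RNA exit channel (FBgn0261597, dm6 chromosome 2L, 18441335 to 18443277, minus strand), had 813 and 757 CPM in VAChT:VGlut and 1062 and 1055 CPM in VAChT:VGAT. Its libraries separated clearly, with a log2 fold change of -0.44 (SE 0.042, edgeR adjusted p = 4.06e-13). RpL31, a large-subunit protein near the exit of the peptide tunnel (FBgn0285949, chromosome 2R, 9587193 to 9587989, plus strand), had 618.1 and 599 CPM against 814 and 813 CPM. The difference between genotypes exceeded that between replicates many times over (log2 fold change -0.42, SE 0.046, edgeR adjusted p = 2.38e-11). RpL27A (FBgn0285948, chromosome 2L, 4457186 to 4458364, minus strand) is a large-subunit protein and had 637 and 598 CPM against 790 and 786 CPM. Its log2 fold change was -0.36 (SE 0.046, edgeR adjusted p = 8.27e-09), with the VAChT:VGlut libraries further apart than the VAChT:VGAT ones.

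RpS13, a small-subunit protein (FBgn0010265, chromosome 2L, 8363477 to 8364662, minus strand), had 524 and 496 CPM against 653 and 625 CPM, a log2 fold change of -0.33 (SE 0.050, edgeR adjusted p = 4.52e-07). RpL32 (FBgn0002626, chromosome 3R, 30045229 to 30046161, minus strand) is also called rp49 and is widely used as the reference gene of quantitative PCR in flies. It had 469 and 420 CPM against 570 and 533 CPM, so the groups did not overlap. The fitted level in VAChT:VGAT was 1.25 times that in VAChT:VGlut (log2 fold change -0.32, SE 0.055, edgeR adjusted p = 6.83e-06). RpS18, a protein of the small-subunit head (FBgn0010411, chromosome 2R, 20263979 to 20264848, plus strand), had 567 and 552 CPM against 702 and 691 CPM. Here too the libraries separated by genotype (log2 fold change -0.32, SE 0.048, edgeR adjusted p = 3.42e-07).

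An acidic stalk on the large subunit, which recruits the elongation factors, is built from RpLP0, RpLP1 and RpLP2. RpLP0, the base of the stalk, had 696 and 705 CPM in VAChT:VGlut and 721 and 721 CPM in VAChT:VGAT. It was not called (log2 fold change -0.04, 95% interval -0.13 to 0.05, edgeR adjusted p = 0.674), and the interval spans no change. RpLP1, which pairs with RpLP2, had 381 and 370 CPM against 426 and 448 CPM and was called lower (log2 fold change -0.21, edgeR adjusted p = 0.00618). RpLP2 had 432 and 410 CPM against 483 and 452 CPM and passed the threshold narrowly (log2 fold change -0.16, edgeR adjusted p = 0.049). Whether RpLP0 differed from its partners in its change was not tested.

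A pair of members is made as fusions with ubiquitin, from which the ribosomal protein is cleaved. RpL40, of the large subunit (FBgn0003941, chromosome 2L, 4227699 to 4228561, plus strand), had 697 and 703 CPM against 860 and 845 CPM. Its groups lay far apart relative to their replicates (log2 fold change -0.28, SE 0.044, edgeR adjusted p = 6.71e-07). RpS27A, of the small subunit, had 642 and 565 CPM against 711 and 617.9 CPM. Its groups overlapped although the gene was called lower (log2 fold change -0.15, edgeR adjusted p = 0.0438), and it shares exon bases with Ip259, 94.1% being free of overlap. RpS6, the small-subunit target of S6 kinase downstream of Tor (FBgn0261592, chromosome X, 7899624 to 7901331, minus strand), had 871 and 876 CPM against 1003 and 1017 CPM. It was called lower with close replicates (log2 fold change -0.21, SE 0.041, edgeR adjusted p = 8.85e-05). A snoRNA gene overlaps its exons, leaving 88.1% of bases free.

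Of the 30 tested members that were not called, 27 had a negative fold change and 10 of these a 95% interval below 0. The gene sta, whose product lies on the small subunit and is related to a laminin receptor of mammals, stood at the other end (FBgn0003517, chromosome X, 1481797 to 1483413, minus strand). It had 896 and 928 CPM in VAChT:VGlut and 888 and 836 CPM in VAChT:VGAT, so both VAChT:VGlut libraries were above both others. The difference did not pass the test (log2 fold change 0.08, 95% interval -0.01 to 0.16, edgeR adjusted p = 0.27). RpL21 and RpL39, both of the large subunit, had the other positive values, 0.03 and 0.03, with edgeR adjusted p of 0.753 and 0.926.

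Several members have a second copy in the genome, and for most pairs 1 copy carried nearly all counts. RpL10Aa, RpL37b, RpS10a and RpS28a had 0 counts in all libraries. RpS19b had 1 count in VAChT:VGAT replicate 2 and none elsewhere. RpS5b, known in flies from the germline, had 1 and 2 counts in VAChT:VGlut and 4 and 4 in VAChT:VGAT. These 6 genes were the ones not tested, and their levels were at or near the limit that a count of 0 allows. Of their partners, RpL10Ab (adjusted p = 0.00625), RpL37a (6e-07), RpS10b (0.0122), RpS19a (1.87e-04) and RpS28b (0.00282) were called lower by edgeR, with log2 fold changes from -0.28 to -0.20. RpS5a was not called (612 and 552 CPM against 609 and 659 CPM, edgeR adjusted p = 0.116), and its groups overlapped.

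Both copies were tested in 3 pairs. RpL34b had 402 and 401 CPM against 493 and 488 CPM and was called lower (log2 fold change -0.29, edgeR adjusted p = 5.36e-05). RpL34a had 97.5 and 85.8 CPM against 103 and 99.9 CPM and was not called (log2 fold change -0.16, edgeR adjusted p = 0.451). Per length, RpL34a made up 26.6% and 24.2% of the pair in VAChT:VGlut and 23.8% and 23.4% in VAChT:VGAT, a difference similar in size to that between replicates. RpS14b, a tandem and nearly identical copy of RpS14a, made up 18.6% and 20.2% of its pair per length against 19.6% and 18.3%, with overlapping groups. Since reads can fall on either copy, both values are uncertain; RpS14a was called lower (edgeR adjusted p = 0.0144) and RpS14b was not (adjusted p = 0.553). RpS15Ab, with 32 and 43 counts against 40 and 29, made up 4.37% and 4.81% of its pair against 5.19% and 4.84%, and neither it (edgeR adjusted p = 0.605) nor RpS15Aa (adjusted p = 0.118) was called. Without any member of these pairs, 45 of 70 tested members were called lower.

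Exonic length moved with the fold change in this comparison, and among short genes level did too. Over all tested genes, shorter genes had lower values in VAChT:VGlut (Spearman rho of log2 fold change and length 0.328, across genes of the same libraries), and the members, with a median length of 922 bases against 2319 over all tested genes, are short. The trend of fold change on length had a median of -0.15 at the members. After the trend was removed, 9 members were called lower, where 3.89% of all tested genes were, and 3 were called higher, where 3.66% were. The median member value was then -0.05, with 50 of 82 negative. Among the 9 were RpS26, RpL5, RpL31, RpS13, RpL37a and RpL27A. RpS26 kept most of its change (-0.37, edgeR adjusted p = 2.04e-10), and RpL5, a large-subunit protein that binds the 5S RNA and is the longest member at 3835 bases, stood at -0.30 (edgeR, with 865 and 893 CPM against 1057 and 1042 CPM). The 3 called higher were sta (0.19, edgeR adjusted p = 0.00138), RpL21 (0.21, adjusted p = 0.00197) and RpL23 (0.14, adjusted p = 0.0414).

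Few other genes are both as short and as abundant as the members. Abundant genes, taken over all lengths together, went the other way. Of the 2095 other tested genes at 100 CPM or more, 8.59% were called lower and 19.5% higher. Their median length was 4213 bases and their median log2 fold change 0.06. Among the 1985 other tested genes of at most 1422 bases, 8.72% were called lower and 1.16% higher. Of the 177 among these at 100 CPM or more, 37.3% were called lower and 3.39% higher, with a median log2 fold change of -0.17, close to the member median. Of the 19 at or above the median level of the members, 16 were called lower (84.2%), with a median of -0.41. A trend on length and level together was therefore fitted to the other genes and removed, an alternative chosen after seeing the data that rests on few genes at the members' levels. Then 2 members, RpS26 (-0.36, edgeR adjusted p = 7.09e-10) and RpL5 (-0.34, adjusted p = 1.18e-09), were called lower, against 3.75% of all tested genes. A further 21 were called higher, against 3.88% of all tested genes, and the median member value turned to 0.07. Under this fit, the direction of the members relative to other genes of like length and level differed from their direction relative to all genes. Without a fit, the medians were -0.19 for the members, -0.17 for the 177 short genes and -0.41 for the 19. The median levels of these sets were 585, 181 and 927 CPM, so neither set of other genes matched the members in level. The relative direction therefore depended on which genes the members were set against. What produces the length and level trends was not tested.

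**Figure D3:**
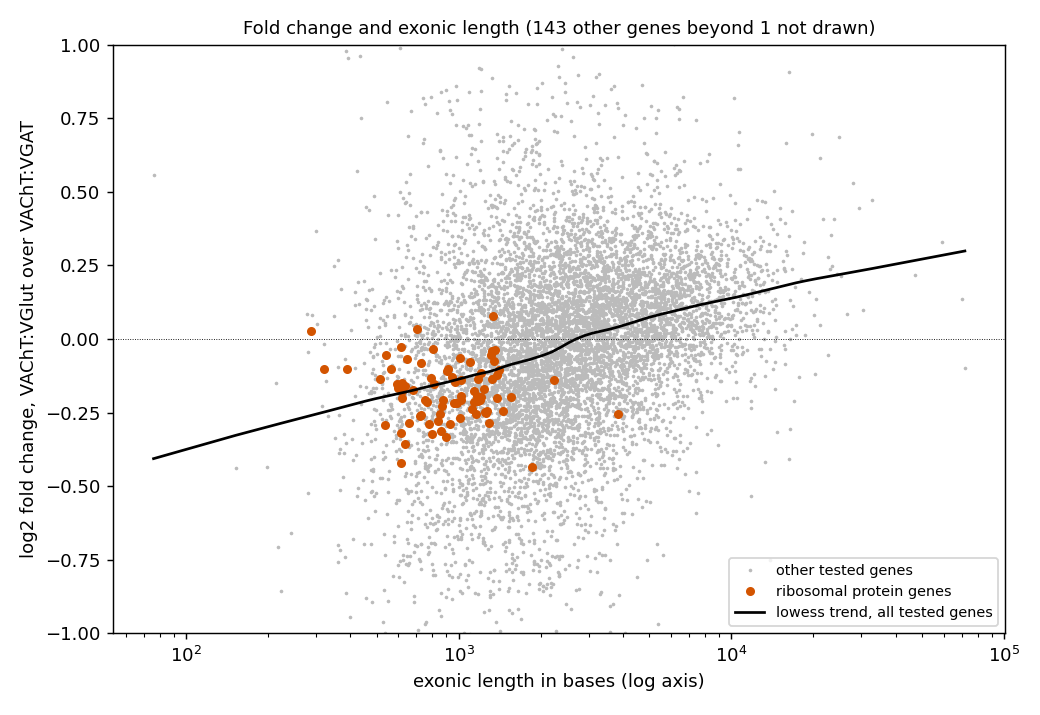
Log2 fold change of VAChT:VGlut over VAChT:VGAT against exonic length in bases (log axis) for tested genes, with members marked, the trend over all genes drawn as a line, and 143 genes beyond 1 in size not drawn. Members gather at short lengths around a median of 922 bases, where the trend itself lies below 0.

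In the lists for the rest of the translation machinery, a smaller share of genes was called, and 3 lists (initiation, elongation and biogenesis) had calls in both directions. Over all tested genes 5.54% were called lower and 6.22% higher. Levels were unlike: in a library the 25 biogenesis genes summed to 770 to 812 CPM and the 20 synthetase genes to 761 to 797 CPM. The median of a single member was 585 CPM. Genes at low levels had larger standard errors, so fewer calls do not show smaller changes. Of 27 initiation factor genes, eIF3h (log2 fold change -0.27, edgeR adjusted p = 0.029) and eIF3m (-0.24, adjusted p = 0.041), subunits of the factor that holds the small subunit during initiation, were called lower. The poly(A)-binding protein gene pAbp was called higher, at 949 and 929 CPM against 796 and 779 CPM (0.25, edgeR adjusted p = 5.44e-06). The list's median log2 fold change was -0.02. Of 10 elongation and release factor genes, 3 were called lower and 1 higher. eEF1alpha1, the abundant factor that brings tRNA to the ribosome, had 4766 and 4887 CPM against 5530 and 5629 CPM (-0.21, edgeR adjusted p = 1.07e-09). Its paralogue eEF1alpha2 went the other way, at 916 and 939 CPM against 725 and 736 CPM (0.35, edgeR adjusted p = 1.94e-09). The exchange factor subunit eEF1beta had 202 and 195 CPM against 238 and 262 CPM (-0.33, edgeR adjusted p = 0.00105).

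Of 24 ribosome biogenesis genes, 2 were called lower and 1 higher, with a median log2 fold change of -0.21, close to that of the ribosomal proteins. Nop60B, the pseudouridine synthase of ribosomal RNA, had 35.2 and 30.6 CPM against 52.7 and 49.3 CPM (-0.65, edgeR adjusted p = 0.00489), and Ns1, a nucleostemin GTPase, was lower too (-0.76, adjusted p = 0.0259). Non1, a nucleolar GTPase, was called higher (0.29, adjusted p = 0.00064). Among 20 aminoacyl-tRNA synthetase genes only SerRS was called, and it was lower (-0.62, edgeR adjusted p = 0.0496). TyrRS and TrpRS, the next by p, had edgeR adjusted p of 0.125 and 0.225. Of 11 growth signalling genes, the 2 called were higher: Mnt, the repressor that competes with Myc for its partner, at 268 and 269 CPM against 189 and 173 CPM (0.56, edgeR adjusted p = 2.33e-08), and Myc itself (0.32, adjusted p = 0.0498). Tor, the growth kinase, was not called (0.27, edgeR adjusted p = 0.245). Of 71 mitochondrial ribosomal protein genes, which are about as short as the cytosolic ones (median 783 bases) but summed to only 1331 to 1401 CPM in a library, 1 was called, mRpS29, and it was higher (1.02, edgeR adjusted p = 0.0036). Their median was -0.03, and mRpL13 and mRpL21 followed with edgeR adjusted p of 0.09 and 0.0997. Neither of the 2 tested ribosomal protein-like paralogues was called, RpL24-like having an edgeR adjusted p of 0.107 and RpLP0-like one of 0.674.

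**Figure D4:**
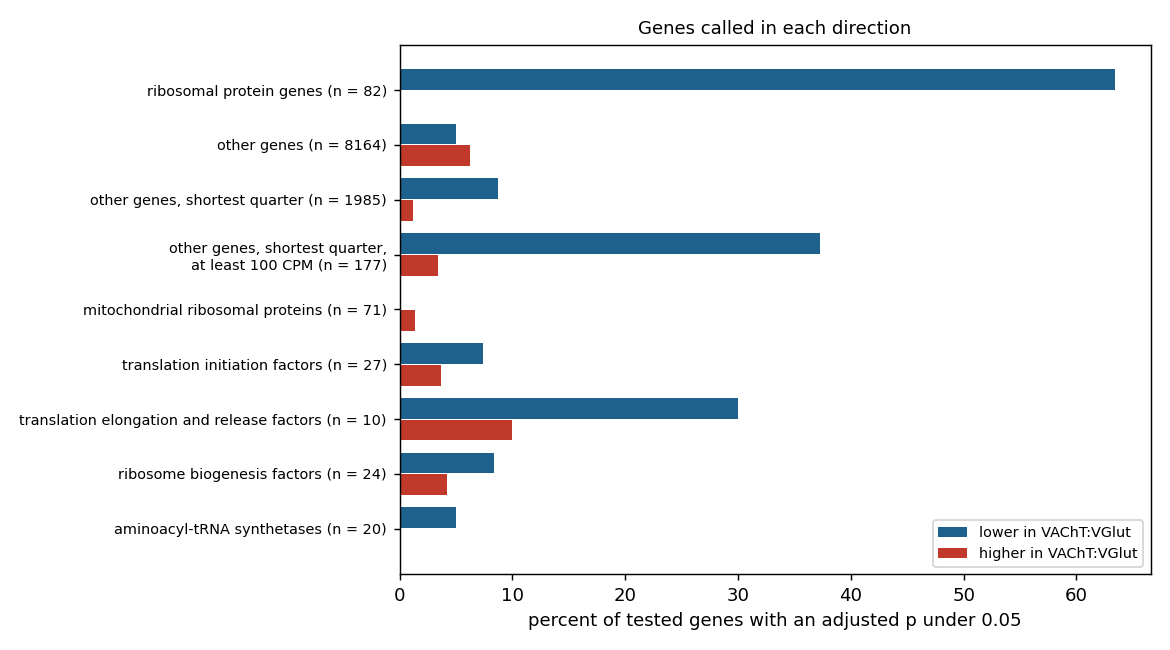
Share of tested genes called lower and higher in VAChT:VGlut (edgeR, adjusted p under 0.05), in percent, for the ribosomal protein genes, all other tested genes, the short ones among these (at most 1422 bases) and other translation lists. The ribosomal protein genes stand at 63.4% lower and 0% higher, all other genes at 4.96% and 6.28%, and short genes at 100 CPM or more at 37.3% and 3.39%. Not drawn are the 19 short genes at or above the median level of the members, with 84.2% called lower and 0% higher.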

How the data were processed

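The authors deposited raw counts, counted per the file headers by featureCounts 1.5.1 as reverse-strand read pairs in dm6 refGene exons, in 1 run for the 4 libraries. The submitters' processing notes name fastp, STAR, featureCounts, DESeq2 and dm6 without versions. Whether molecular indices were used to remove duplicates is not given in the sources used here. Groups and replicate numbers came from the sample titles. Input nuclei and untagged controls were not analysed here.

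Counts were tested with edgeR 4.0.16 (R 4.3.3) on the 4 libraries with a single term for genotype, TMM scaling and filterByExpr (minimum count 10, minimum total 15), which kept 8246 of 17137 genes. P-values were adjusted over all of these (Benjamini-Hochberg, threshold 0.05). CPM are counts scaled to the TMM-adjusted library size. A standard error is the log2 fold change divided by the root of its F value. Fits were tested on simulated data. Alternatives were DESeq2 1.42.0, limma-voom (limma 3.58.1), other scalings and filters, fixed dispersions, thinning, trend removal, a replicate block and leaving out each library.

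The members and lists were chosen with earlier results of these data known, so the lists have no test of their own. Members named were the 6 called with the largest change, the 3 highest and 3 lowest per length, every paralogue pair, the stalk genes, the ubiquitin fusions, sta and RpS6, and from each list the 3 genes with the smallest p. RpL5, RpL21, RpL39, RpS3A and the marker genes CycB, dhd, orb, bru1, grk and Vm26Aa were named after their values were seen. Coordinates are those of the deposited table, and 86 of 88 members matched a FlyBase gene whose Ensembl BDGP6 span overlapped. A planned search of promoters for motifs was not run, since sequences were not used here. 1 member is counted but not reported by name. In the lists, 4 symbols matched no row.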

Additional observations from a re-analysis of the deposited data

How the results depend on the processing

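The difference in the share of counts in member genes was -0.699 percentage points. It was -0.744 without the 20 most abundant genes in the total and -0.699 without mitochondrial chromosome genes. Without 1 library it was -0.779 to -0.619. Trend removal was not run for the share, which sums the counts of the same members. The count of 52 called members was within 1.5 times of itself under the other scalings, filters, limma-voom, thinning, leaving out the 20 most abundant genes and the replicate block (54 members, 52 of them the same). Same-numbered libraries had a correlation of deviations from their group means of -0.0286, so the numbers were not shown to pair them. With 2 libraries in a group this is 1 value, since both pairs give the same correlation by construction. The count was 24 with DESeq2 (2 members had no adjusted p) and 19 without its independent filtering. It was 0 when tested against a 1.5-fold change (also 0 at an unadjusted p under 0.05), 0 at a biological coefficient of variation of 0.1 (7 unadjusted) and 0 at 0.2 (0 unadjusted), all with edgeR. It was 12 with the length trend removed, 9 lower and 3 higher. With the length and level trend of other genes removed, the alternative chosen after seeing the data, it was 23. Of these 23, 2 were lower and 21 higher, and only 7 were among the 52. Leaving out 1 library gave 23 to 46 members, where the lone library left in a group is assumed to vary like the other group. The median member log2 fold change was -0.22 with library size alone, a scaling that moved the median of all tested genes to -0.04, then -0.0533 and 0.0650 with the 2 trends removed, and -0.21 to -0.15 without 1 library. With the length trend removed, negative values fell from 79 to 50 of 82 members, and these of the members named by rule changed sign: RpL41 to 0.15, RpL23 0.14, RpS14b 0.018, RpL38 0.0704, RpL34a 0.022, RpS15Aa 0.013, RpLP0 0.0678, RpLP2 0.025 and RpS27A 0.033. With length and level removed, 23 of 82 were negative, and these named members changed sign: RpL27A to 0.013, RpS18 0.0511, RpL41 0.42, RpL23 0.36, RpL40 0.0781, RpS14b 0.0838, RpL38 0.11, RpL34a 0.0942, RpL10Ab 0.019, RpS15Aa 0.12, RpS14a 0.046, RpS28b 0.025, RpS5a 0.032, RpLP0 0.13, RpLP1 0.0776, RpLP2 0.19, RpS27A 0.23, RpS6 0.0024. Without 1 library, 74 to 80 of 82 members were negative (74 without VAChT:VGAT replicate 1, 75 without VAChT:VGlut replicate 2). Among the members named by rule, RpL23 ranged from -0.10 to 0.00315 and RpL38 from -0.17 to 0.0747, both positive without VAChT:VGAT replicate 1. The causes were not tested. For the minor copies RpL10Aa, RpL37b, RpS10a, RpS28a and RpS19b, low depth and lack of expression cannot be told apart. RpS5b was counted in all 4 libraries (1 and 2 counts against 4 and 4) but had too few counts to test.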
